A study of Bubalus bubalis with 12 samples.

Results

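The genes described here encode inflammatory cytokines of epithelia, the natural antagonist of the IL-1 receptor, and components of the NF-kB pathway. They are IL1A, IL1B, IL1RN, IL18, IL33, TNF, CXCL8, CCL20, NFKB1 and NFKBIA, chosen by gene name, and they make up 10 of the 34037 genes of the expression table. Ruminal wall was taken at slaughter from Italian Mediterranean dairy buffaloes aged 8.2 ± 0.6 years at a commercial dairy. The control group of 6 animals was fed a total mixed ration (TMR), and the treated group of 6 animals was fed TMR in which green feed (ryegrass) made up about 30% of the diet, over a trial of 60 days that followed 14 days of adaptation. Each animal gave 1 RNA-seq library, and the counted fragments ranged from 10531527 to 12948372 per animal. Expression is given as FPKM, in which the fragments of a gene are scaled by its length and by the counted fragments of the animal. Levels can thus be compared roughly between genes of different length.

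Interleukins of the IL-1 family and TNF are signals that epithelial and immune cells release on damage or contact with microbes. Their receptors lead to degradation of the inhibitor IkB-alpha, which frees NF-kB dimers to enter the nucleus and switch on further cytokines, chemokines and the gene of the inhibitor itself. The stratified squamous epithelium of the rumen faces a dense microbial community and stores some of these cytokines inside its cells.

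The sampled tissue held a high level of squamous epithelial transcripts. Of 12 epithelial marker genes, 11 were matched by name, and their summed level ranged from 3567 to 6303 FPKM over the animals, with KRT5 the most abundant at a mean of 1493 FPKM. Transcripts of smooth muscle, fibroblasts, endothelium and leukocytes were also present, so a level below is that of the whole wall. In such bulk samples, fewer cells of a type and less RNA per cell cannot be told apart.

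The agonist ligands of the IL-1 receptor were expressed at low levels. IL1A, an alarmin held in epithelial cells, ranged from 0.622 to 2.495 FPKM in the control group (median 1.306) and from 0.796 to 4.66 FPKM in the treated group (median 1.68). Treated replicates 6 and 2 lay above every control animal, and the other treated animals lay within the control range. Its log2 fold change, treated minus control on log2(FPKM + 0.01), was 0.33 in limma (SE 0.46, 95% interval -0.66 to 1.31, two-sided exact permutation p = 0.5325, n = 6 per group). IL1B, the secreted agonist that inflammasome proteases activate, ranged from 0.253 to 2.71 FPKM in the control group (median 1.98) and from 0.306 to 2.40 FPKM in the treated group (median 1.76). The lowest animals were control replicate 2 with 5 reads and treated replicate 5 with 6 reads, and all treated animals lay within the control range. For IL1B the log2 fold change was -0.14 (SE 0.61, 95% interval -1.44 to 1.16, exact permutation p = 0.764, n = 6 per group).

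IL18 and IL33 are further IL-1 family ligands. IL18, which is activated by the same proteases as IL1B, ranged from 0.825 to 3.21 FPKM in the control group (median 1.505) and from 1.22 to 3.03 FPKM in the treated group (median 1.77). All treated animals fell inside the control range, and the lowest control animals rested on 9 reads each. IL33, a nuclear alarmin of barrier and stromal cells, ranged from 0.112 to 0.982 FPKM in the control group (median 0.627) and from 0.0864 to 1.485 FPKM in the treated group (median 0.504). Treated replicates 4 and 6 lay above every control animal, while treated replicate 1, with 3 reads, lay below all of them. In IL18 the log2 fold change was 0.30 (SE 0.38, 95% interval -0.51 to 1.11, exact permutation p = 0.457, n = 6 per group). In IL33 it was 0.05 (SE 0.67, 95% interval -1.40 to 1.49, exact permutation p = 0.954, n = 6 per group).

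TNF, the ligand of the TNF receptors and a strong activator of NF-kB, had the lowest mean level over the 12 animals. In the control group alone, the mean of IL33 was lower (0.602 FPKM against 0.699 FPKM for TNF). TNF ranged from 0.476 to 0.920 FPKM in the control group (median 0.711) and from 0 to 1.07 FPKM in the treated group (median 0.464). Treated replicates 3, 5 and 6 lay below every control animal, treated replicate 1 lay above all of them, and the remaining treated animals lay within the control range. The 0 in treated replicate 3 allows a level of up to 0.146 FPKM (3 reads), counting error only. The log2 fold change of TNF was -1.21 (SE 0.92, 95% interval -3.18 to 0.76, exact permutation p = 0.232, n = 6 per group). It rested largely on that animal, since it was -0.23 without treated replicate 3.

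No member was too low to measure, taken as a median of 3 reads or fewer over the 12 animals. TNF and IL33 were measured in part, with 3 reads or fewer in 1 animal each. TNF and IL18 also stayed below the read filter of the genome-wide test and were read from a fit over all genes above 0, so 8 of the 10 members were among the 12642 genes tested. IL33 passed that filter through treated replicates 4 and 6 alone, with 0 control animals at the threshold, whereas the other tested members reached it in at least 2 animals of each group.

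The antagonist was more abundant than the agonists. IL1RN, which encodes the IL-1 receptor antagonist that occupies the receptor without signalling, ranged from 10.7 to 16.8 FPKM in the control group (median 14.7) and from 11.4 to 16.8 FPKM in the treated group (median 14.8). All treated animals lay within the control range, and the highest animal exceeded the lowest by 1.57-fold. The log2 fold change was 0.08 (SE 0.15, 95% interval -0.23 to 0.395, exact permutation p = 0.561, n = 6 per group). In FPKM, IL1RN exceeded the sum of IL1A and IL1B in all 12 animals. The ratio ranged from 2.28 to 19.2 in the control group (median 3.93) and from 2.39 to 13.7 in the treated group (median 4.71). Its highest value was in control replicate 2, where IL1B was lowest, and its lowest value was in control replicate 3. In the RefSeq annotation of the assembly NDDB_SH_1, IL1A, IL1B and IL1RN lie in the same cluster, with IL37, IL36G, LOC102415007, IL36B, IL36RN and IL1F10 between IL1B and IL1RN.

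The chemokines varied widely between animals. CXCL8, which attracts neutrophils, ranged from 3.79 to 32.8 FPKM in the control group (median 13.1) and from 4.03 to 28.55 FPKM in the treated group (median 7.94). Control replicate 4 and treated replicate 6 were the highest of their groups, control replicate 2 and treated replicate 5 the lowest, and the treated range lay inside the control range. The log2 fold change was -0.35 (SE 0.53, 95% interval -1.496 to 0.79, exact permutation p = 0.582, n = 6 per group). The length implied for CXCL8 by the FPKM was 377 bases, so 17 to 157 reads stood behind these values. CCL20, the ligand of CCR6 that attracts dendritic cells and lymphocytes to epithelia, ranged from 3.40 to 47.4 FPKM in the control group (median 24.15) and from 3.62 to 74.6 FPKM in the treated group (median 20.2). The same animals, control replicate 2 and treated replicate 5, were lowest, treated replicate 6 exceeded every control animal, and the groups otherwise overlapped. For CCL20 the log2 fold change was -0.21 (SE 0.74, 95% interval -1.80 to 1.39, exact permutation p = 0.812, n = 6 per group).

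The NF-kB subunit and its inhibitor were among the most even members. NFKB1, which encodes p105 and its product p50, ranged from 11.7 to 17.9 FPKM in the control group (median 14.5) and from 10.8 to 18.7 FPKM in the treated group (median 14.5). Treated replicates 1 and 2 lay above every control animal and treated replicate 5 below, with the other treated animals in between. Its log2 fold change was 0.04 (SE 0.15, 95% interval -0.28 to 0.36, exact permutation p = 0.829, n = 6 per group). NFKBIA, which encodes IkB-alpha and is itself a target of NF-kB, was the most abundant member, from 40.9 to 59.2 FPKM in the control group (median 54.2) and from 36.1 to 67.4 FPKM in the treated group (median 47.8). The treated animals spread to both sides of the control range, with treated replicates 1 and 6 above it and treated replicates 3 and 5 below it. For NFKBIA the log2 fold change was -0.07 (SE 0.17, 95% interval -0.445 to 0.30, exact permutation p = 0.693, n = 6 per group). The ratio of NFKBIA to NFKB1 in FPKM ranged from 2.499 to 4.62 over the 12 animals.

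**Figure D1:**
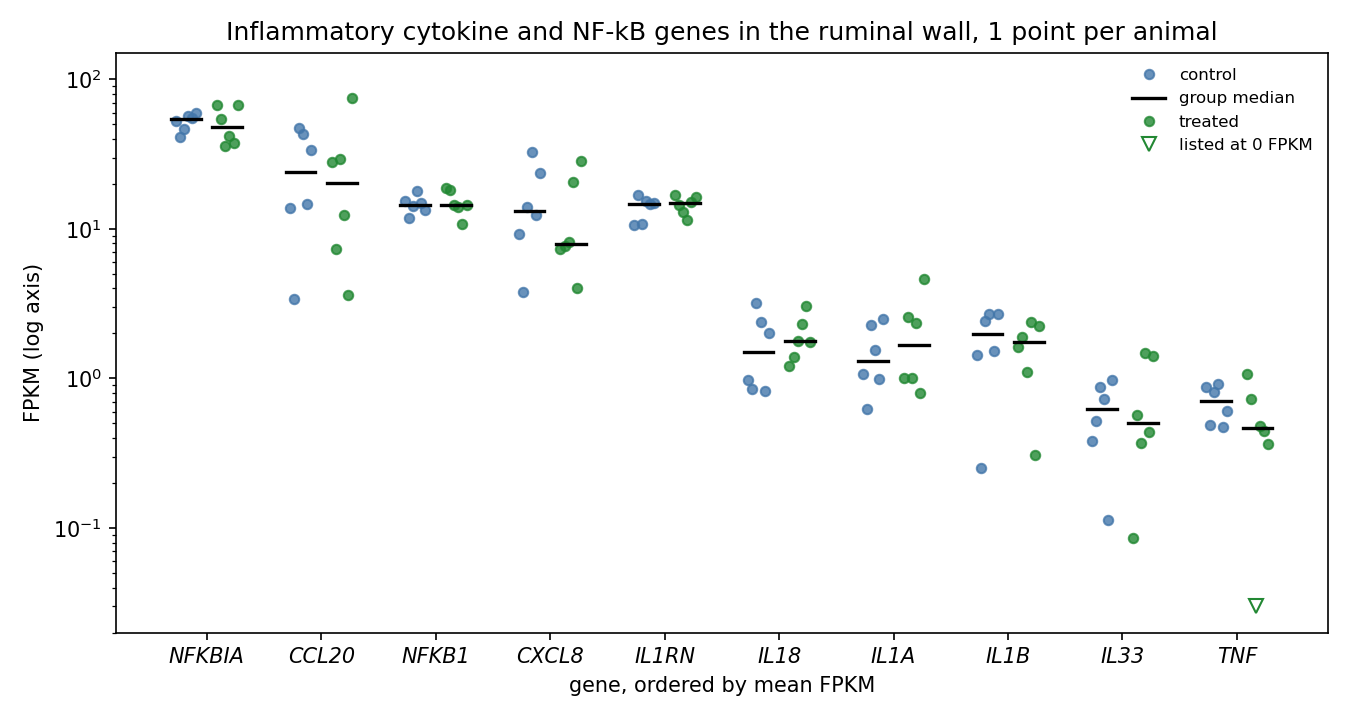
FPKM (log axis) of the 10 genes in each of 12 animals, with control animals in blue, treated animals in green and black bars at the group medians; the open triangle marks the animal listed at 0 FPKM for TNF, drawn at the foot of the axis. The groups overlap for every gene, and CCL20 spreads from 3.40 to 74.6 FPKM while IL1RN stays between 10.7 and 16.8 FPKM.

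None of the members was called between the diets. In the limma fit, 0 of the 8 tested members had a nominal p below 0.05, against 157 of 12642 genes tested (1.24%), and 0 genes passed an adjusted p of 0.05. The limma adjusted p was 0.9997 for each tested member. In the fit over all genes above 0, neither TNF nor IL18 had a nominal p below 0.05, against 562 of 22972 genes (2.45%), and the limma adjusted p of both was 0.9998. The intervals differed in width: those of IL1RN, NFKB1 and NFKBIA stayed within 0.45 on the log2 scale on either side of 0, whereas those of IL1B, IL33 and CCL20 reached beyond 1 on both sides. The intervals of TNF and CXCL8 reached beyond 1 on the lower side, and those of IL1A and IL18 on the upper side.

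**Figure D2:**
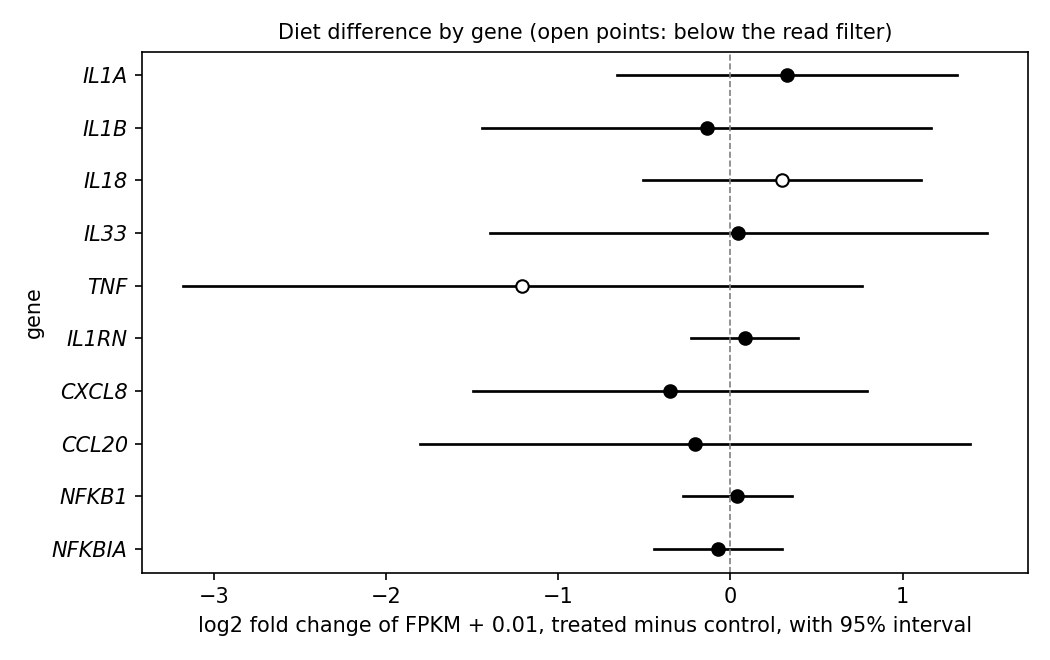
Log2 fold change (treated minus control, FPKM + 0.01) of each gene with its 95% interval from limma, 6 animals per group; open points mark TNF and IL18, which were below the read filter. Every interval includes 0, with that of IL1RN from -0.23 to 0.395 and that of TNF from -3.18 to 0.76.

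By mean FPKM over the 12 animals, the members ran from NFKBIA (51.3 ± 10.7, SD) through CCL20 (25.9 ± 21.3), NFKB1 (14.9 ± 2.46), CXCL8 (14.3 ± 9.75) and IL1RN (14.2 ± 2.23) to IL18 (1.82 ± 0.809), IL1A (1.78 ± 1.16), IL1B (1.72 ± 0.845), IL33 (0.664 ± 0.453) and TNF (0.607 ± 0.294). This order is one of levels per length: CXCL8 had a median of 50.5 reads, against 758.5 for its neighbour NFKB1. Only the step from IL1RN to IL18 separated neighbours in all 12 animals. The order by means was not kept in most animals at 2 steps, since CXCL8 exceeded IL1RN in 5 of 12 animals and IL1A exceeded IL1B in 4 of 12. NFKBIA exceeded CCL20 in 10 animals, NFKB1 exceeded CXCL8 in 8 and IL1B exceeded IL33 in 10, while CCL20 and NFKB1, IL18 and IL1A, and IL33 and TNF each changed places in 6 of 12 animals.

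The spread between animals of 1 group differed widely between members. The within-group SD of log2(FPKM + 0.01) was 1.503 for CCL20, larger than in 98.2% of the genes tested, and 1.297 for IL33. IL33 is not ranked here, since it joined the genes tested through its 2 highest animals alone. Its lowest animals had 3 and 4 reads. For CXCL8 it was 1.07, larger than in 95.8% of the genes tested. IL1B had an SD of 1.20, larger than in 96.9% of the genes tested, with 5 and 6 reads in its lowest animals. IL1A and IL18 had an SD of 0.89 and 0.69. The SD of TNF was 1.76 with the 0 of treated replicate 3 and 0.51 without that animal, an alternative chosen after seeing the data. The SD of IL1RN was 0.25 and that of NFKB1 0.25, below the median of 0.358 over all genes tested. The SD of NFKBIA was 0.32, also below that median. These comparisons are with genes of all read depths. At the median reads of a gene, counting error alone gives an SD of 0.24 for IL1B, 0.2 for CXCL8 and 0.098 for CCL20. For NFKBIA, NFKB1 and IL1RN it gives 0.045, 0.052 and 0.068.

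Correlations over the animals were computed between the members. Of 28 pairs of the 8 tested members, 5 had a permutation p below 0.05 after Benjamini-Hochberg adjustment, all with a positive r and all among IL1A, IL1B, CXCL8 and CCL20. The lowest r of these pairs was 0.744, a value that 3.34% of all pairs of genes tested also reached, against 5 of the 28 member pairs (17.9%). The cut of 0.744 was taken from the member pairs themselves, which fixed their share beforehand. The members were chosen for related functions, and genes are not independent of each other, so these shares are a description. IL1B and CXCL8 were the closest pair (Pearson r = 0.85, permutation p = 4e-05, adjusted p = 0.00112; Spearman rho = 0.846, permutation p = 0.00091, adjusted p = 0.0255; 12 animals). The r of this pair was 0.919 in the control group, 0.779 in the treated group and 0.788 without control replicate 2 and treated replicate 5, the animals farthest from the median of IL1B.

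CXCL8 and CCL20 had an r of 0.786 (permutation p = 0.00287, adjusted p = 0.0201) and a rho of 0.762 (permutation p = 0.0057, adjusted p = 0.0663). Without control replicates 2 and 4 their r was 0.692. IL1A and IL1B had an r of 0.748 (permutation p = 0.00222, adjusted p = 0.0201), a rho of 0.748 (permutation p = 0.0071, adjusted p = 0.0663) and an r of 0.731 without control replicate 2 and treated replicate 6. IL1A and CXCL8 had an r of 0.744 (permutation p = 0.00623, adjusted p = 0.0349), a rho of 0.664 (permutation p = 0.0212, adjusted p = 0.0989) and an r of 0.584 without the same animals. With each animal left out in turn, the adjusted p of IL1A and CXCL8 ranged from 0.0174 to 0.119 and was not below 0.05 in 9 of 12 cases. That of IL1A and IL1B was not below 0.05 in 5 of 12 cases, that of CXCL8 and CCL20 in 4, that of IL1B and CCL20 in 3 and that of IL1B and CXCL8 in 0. IL1B and CCL20 had an r of 0.785 (permutation p = 0.00265, adjusted p = 0.0201) and a rho of 0.671 (permutation p = 0.0208, adjusted p = 0.0989). Their r was 0.688 without control replicate 2, 0.7 without treated replicate 5 and 0.328 without both. Leaving out the animals farthest from the median also narrows the range, so this fall cannot show that the relation rested on them. The remaining pair of these genes, IL1A and CCL20, did not pass (r = 0.607, permutation p = 0.0383, adjusted p = 0.113; rho = 0.517, permutation p = 0.0887, adjusted p = 0.211), with an r of 0.271 without control replicate 2 and treated replicate 6. In the control and treated groups, r was 0.915 and 0.445 for IL1A and CCL20, and 0.904 and 0.681 for CXCL8 and CCL20. It was 0.859 and 0.737 for IL1A and IL1B, and 0.78 and 0.847 for IL1A and CXCL8. For IL1B and CCL20 it was 0.962 and 0.606. On ranks, only IL1B and CXCL8 kept an adjusted p below 0.05.

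IL1RN was not among the pairs that passed. It had an r of -0.312 with IL1B (permutation p = 0.324, adjusted p = 0.504; rho = -0.14, permutation p = 0.667, adjusted p = 0.778) and of 0.095 without control replicate 2 and treated replicate 5. NFKB1 and NFKBIA had an r of 0.629 (permutation p = 0.0283, adjusted p = 0.0992; rho = 0.587, permutation p = 0.0497, adjusted p = 0.155), and of 0.39 without treated replicates 1 and 5.

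**Figure D3:**
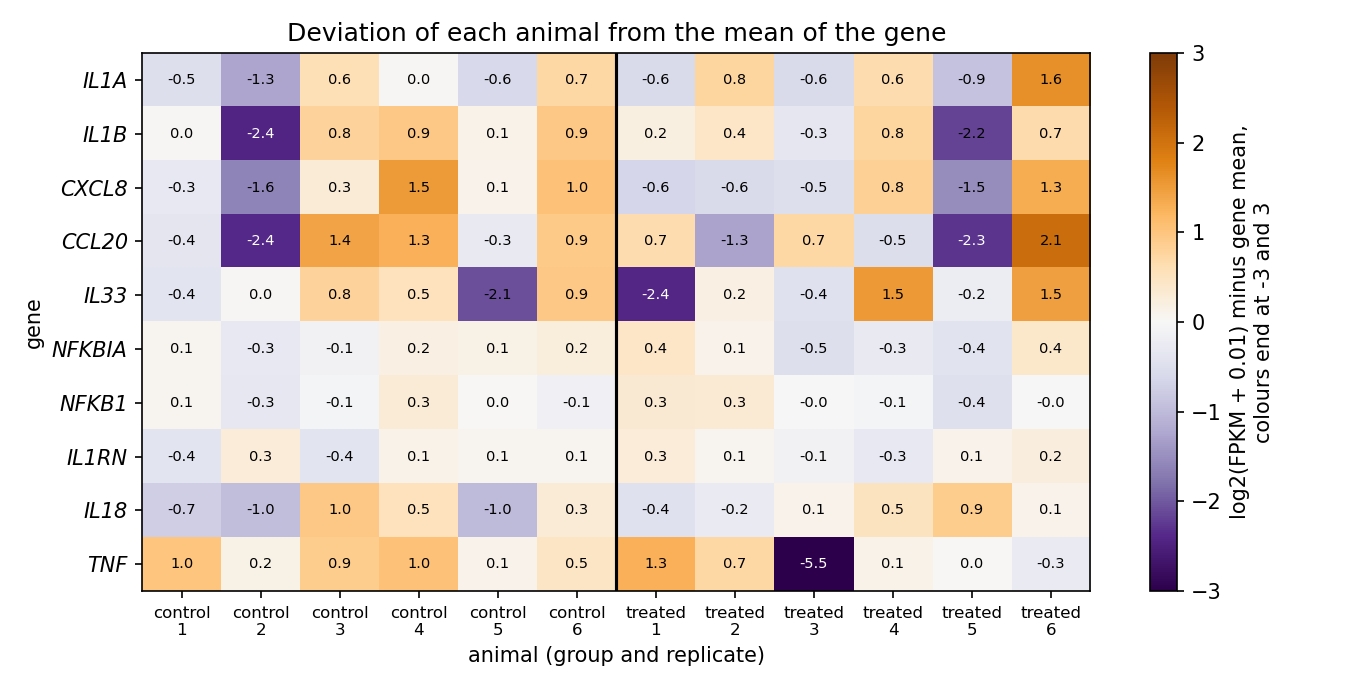
Deviation of log2(FPKM + 0.01) in each animal (columns, control left and treated right of the line) from the mean of each gene (rows), with purple below and orange above the mean; TNF in treated replicate 3, at -5.49, lies beyond the colour scale. Control replicate 2 and treated replicate 5 are low for IL1A, IL1B, CXCL8 and CCL20, at -2.42 and -2.16 for IL1B, and treated replicate 6 is high for all 4 genes, at 2.08 for CCL20.

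Cell type markers were set beside the members. Each list was scored as the mean log2(FPKM + 0.01) of its matched genes, so genes with few reads weigh as much as abundant ones. The scores can therefore order the animals otherwise than the summed levels given further below. MPO and ELANE in the neutrophil list, and MS4A1 and CD79B in the B cell list, had 3 reads or fewer in every animal. None of 72 relations between the 8 tested members and the 9 marker lists had an adjusted permutation p below 0.05. The smallest adjusted value, 0.176, was shared by 3 relations of IL33, which passed the read filter through treated replicates 4 and 6 alone. With the fibroblast list its r was 0.726 (permutation p = 0.00703; rho = 0.699, permutation p = 0.014, adjusted p = 0.25), and 0.652 without treated replicates 1 and 2. With the endothelial list it was 0.742 (permutation p = 0.00517; rho = 0.643, permutation p = 0.0278, adjusted p = 0.25), and 0.353 without control replicate 5 and treated replicate 1. With the squamous epithelial list it was -0.727 (permutation p = 0.00733; rho = -0.566, permutation p = 0.0597, adjusted p = 0.307), and -0.439 without treated replicates 1 and 6. CXCL8 had an r of 0.694 with the macrophage and dendritic cell list (permutation p = 0.0131, adjusted p = 0.221; rho = 0.741, permutation p = 0.00743, adjusted p = 0.25) and of 0.673 without control replicate 6 and treated replicate 2. The other genes of the correlated pairs were also positive with this list. CCL20 had an r of 0.602 (permutation p = 0.0401, adjusted p = 0.344; rho = 0.622, permutation p = 0.0348, adjusted p = 0.251), IL1A of 0.569 (permutation p = 0.0556, adjusted p = 0.347; rho = 0.476, permutation p = 0.122, adjusted p = 0.399) and IL1B of 0.51 (permutation p = 0.0872, adjusted p = 0.39; rho = 0.678, permutation p = 0.0186, adjusted p = 0.25). Without the same animals these were 0.539, 0.838 and 0.626. All 4 genes were negative with the squamous epithelial list. IL1A had an r of -0.675 with the squamous epithelial list (permutation p = 0.0154, adjusted p = 0.221; rho = -0.58, permutation p = 0.0522, adjusted p = 0.289) and of -0.501 without treated replicates 1 and 6. CXCL8 had an r of -0.625 (permutation p = 0.0284, adjusted p = 0.341; rho = -0.692, permutation p = 0.0155, adjusted p = 0.25), CCL20 of -0.552 (permutation p = 0.0626, adjusted p = 0.347; rho = -0.734, permutation p = 0.00829, adjusted p = 0.25) and IL1B of -0.364 (permutation p = 0.243, adjusted p = 0.487; rho = -0.531, permutation p = 0.0786, adjusted p = 0.354). Without the same animals these were -0.567, -0.753 and -0.523. With the neutrophil list all 4 were negative, at -0.477 (IL1A), -0.419 (IL1B), -0.422 (CXCL8) and -0.507 (CCL20). The adjusted permutation p was 0.39 to 0.423. With the fibroblast list all 4 were positive, at 0.52 (IL1A), 0.325 (IL1B), 0.58 (CXCL8) and 0.377 (CCL20), with adjusted p from 0.344 to 0.565. They were also positive with the general leukocyte, T cell and endothelial lists, and of both signs with the B cell and smooth muscle lists. The part of cell composition in the levels of the members was not tested.

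The summed levels of the marker lists overlapped between the diets. The macrophage and dendritic cell list, with 8 of 9 genes matched and CD14 the most abundant, summed to 46.8 ± 10.7 FPKM in the control group and 51.2 ± 15.5 FPKM in the treated group (SD, n = 6). The mean log2 level of its genes differed in the other direction, by -0.231, treated minus control (exact permutation p = 0.4459, n = 6 per group). The general leukocyte list (5 of 6 genes, LCP1 the most abundant) summed to 40.9 ± 11.2 and 40.2 ± 11.6 FPKM, and the T cell list (6 of 6, CD3D) to 19.6 ± 5.51 and 18.2 ± 5.42 FPKM. The neutrophil list (4 of 6, CXCR2) summed to 3.52 ± 1.32 and 2.995 ± 0.982 FPKM, with MPO and ELANE at 3 reads or fewer in every animal. The B cell and plasma cell list (5 of 5, JCHAIN) summed to 5.08 ± 4.12 and 3.62 ± 3.67 FPKM, with MS4A1 and CD79B at that floor. The fibroblast list (6 of 6, COL3A1) summed to 123.5 ± 82.4 and 83.7 ± 57.1 FPKM, and the endothelial list (5 of 5, PECAM1) to 18.9 ± 8.91 and 18.6 ± 9.95 FPKM. The smooth muscle list (7 of 7, TAGLN) summed to 23.8 ± 8.71 and 13.7 ± 7.67 FPKM, and the mean log2 level of its 7 genes differed by -1.32, treated minus control (exact permutation p = 0.0346, n = 6 per group, not adjusted over the 9 lists). Over its 5 genes above the read filter, chosen after seeing the data, the difference was -0.79 (exact permutation p = 0.0714, n = 6 per group), so the first value rests in part on genes with few reads. Of these 5 genes, DES had a nominal limma p below 0.05, with a log2 fold change of -1.04 (SE 0.42, limma adjusted p = 0.9997), and no tested gene of the other marker lists did.

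Other genes of the same pathways were counted from 6 lists, of whose 126 genes 115 were matched by name. None of the 78 tested genes among them had a nominal p below 0.05 in limma, which is near the 1.24% of all genes tested, and their median log2 fold change was -0.002, against 0.005 over all genes tested. In the list of other IL-1 family ligands, receptors and adaptors, 19 of 22 genes were tested, with a median log2 fold change of 0.017. IL36RN, the antagonist of the IL-36 receptor, was the most abundant at 180.0 ± 29.8 FPKM in the control group and 191.7 ± 49.8 FPKM in the treated group (SD, n = 6). IL36G, an epithelial agonist of that receptor, was at 162.9 ± 37.1 and 169.5 ± 90.3 FPKM. Both had a higher mean FPKM than NFKBIA, the highest member.

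In the list of TNF family ligands, receptors and adaptors, 13 of 17 genes were tested (median log2 fold change 0.068), led by ADAM17, the protease that sheds TNF, at 18.2 ± 2.39 and 17.3 ± 2.57 FPKM, and by the receptor TNFRSF1A at 17.0 ± 4.09 and 17.9 ± 4.10 FPKM. Among chemokines and their receptors, 8 of 29 genes were tested (median -0.233), 8 were not matched by name and are not analysed here, and 8 had a median of 3 reads or fewer, CXCL9, CXCL10 and CXCL11 among them. CXCL14 was the most abundant of these at 42.3 ± 11.5 and 30.4 ± 13.2 FPKM (exact permutation p = 0.1385, n = 6 per group), followed by CXCL16 at 12.7 ± 5.14 and 11.5 ± 6.79 FPKM. Of 16 other epithelial cytokines, 4 were tested (median 0.077), with CSF1 at 3.71 ± 0.793 and 4.17 ± 1.15 FPKM and IL7 at 3.05 ± 0.794 and 3.01 ± 1.08 FPKM, while 9 had a median of 3 reads or fewer, including IL6 and TSLP.

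The NF-kB machinery was expressed throughout. Of 26 genes for subunits, kinases and inhibitors, 25 were tested, with a median log2 fold change of -0.018. NFKBIZ, which encodes an atypical nuclear IkB protein, was at 42.0 ± 8.33 and 46.4 ± 16.5 FPKM. CHUK, a kinase that phosphorylates IkB proteins, was at 18.9 ± 2.38 and 18.5 ± 2.42 FPKM. Of 16 target genes outside the cytokines, 9 were tested (median -0.226), led by SOD2 at 110.3 ± 27.8 and 97.8 ± 21.7 FPKM and IER3 at 91.5 ± 39.3 and 93.3 ± 25.2 FPKM.

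The genes whose levels followed each member most closely over the 12 animals are given as a description, since they were picked from 12642 genes. For IL1A these were GDE1 (r = 0.94) and CCDC115 (r = 0.924), and for IL1B they were PLEK (r = 0.903), a leukocyte protein, and SDS (r = 0.894). PLEK was also close to CCL20 (r = 0.92), after GTF2H3 (r = 0.932). CXCL8 was closest to RDH11 (r = 0.947) and DIRC2 (r = 0.939), and IL33 to SLC8A1 (r = 0.931) and MRPL47 (r = 0.906). IL1RN was closest to TRIP4 (r = 0.894) and LOC112583794 (r = 0.783). NFKB1 was closest to EPHA2 (r = 0.901) and DUOXA2 (r = 0.891), and NFKBIA to PAQR5 (r = 0.908) and RNASE7 (r = 0.904), an antimicrobial ribonuclease.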

How the data were processed

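Total RNA of the ruminal wall was sequenced from stranded libraries. The authors trimmed the reads with Trimmomatic 0.39 (minimum base quality 25), aligned them to UOA_WB_1 with STAR 2.5.2b and counted them by strand with featureCounts 2.0.0 (minimum mapping quality 30). The authors deposited FPKM per gene. Of 16 columns, 12 matched a sample label, and the remaining 4 were not used here. Since the FPKM of a gene are whole multiples of 1 read, reads were worked out for all 22972 genes above 0 (tolerance 0.001 reads).

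Diets were compared with limma 3.58.1 in R 4.3.3 (lmFit, eBayes with trend) on log2(FPKM + 0.01). The p-values were adjusted by Benjamini-Hochberg across the 12642 genes that reached 41.64 TMM-scaled reads in at least 1 animal, the threshold of the HTSFilter step in the study's methods. The procedure was tested on simulated data. Single genes were also compared by a two-sided exact permutation test over 924 assignments (smallest possible p 0.00216), and correlations by two-sided tests of 100000 permutations. Python 3.11.15, numpy 2.4.6, scipy 1.17.1, pandas 2.3.3 and matplotlib 3.10.9 were used.

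The members, the 6 pathway lists and the 9 marker lists were chosen with earlier results of these data known. Named besides the members are pathway list genes with a nominal p below 0.05 (there were 0), the 2 most abundant genes of each pathway list and the 2 genes most correlated with each tested member; floor genes and markers named beside a count were chosen after their values were seen. Alternatives were pseudocounts of 0.1 and 1, other filters, TMM and median-ratio scaling, voom, robust empirical Bayes, a replicate block and each animal left out.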

Additional observations from a re-analysis of the deposited data

Results flagged for a closer look

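Of 20 groups of 6 animals, 1 per member and diet, 2 held an animal whose gap to its nearest neighbour, as a share of the range on log2(FPKM + 0.01), exceeded Dixon's 95% critical value. Chance gives such a gap in about 1 in 20 groups. IL1B in control replicate 2 was at 0.253 FPKM, the lowest of its group, with a gap of 0.731 of the range, against 0.71 and 0.614 at pseudocounts of 0.1 and 1. TNF in treated replicate 3 was listed at 0 FPKM, with a gap of 0.775 of the range. This gap depends on the pseudocount: it was 0.626 at a pseudocount of 0.1, and 0.429 at a pseudocount of 1 or 0.462 with the 0 set to 3 reads, both below the critical value. The other treated animals had 8 to 22 reads of TNF. These other scales for the gaps were chosen after seeing the data. At a pseudocount of 1 the gap of IL1B was also below the critical value.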

How the results depend on the processing

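No member had a nominal limma p below 0.05 in any of the alternatives run, the smallest being 0.132 (TNF, without treated replicate 1), and 0 genes passed an adjusted p of 0.05 in the tested set of any of them. In the fit over all genes above 0, from which TNF and IL18 were read, 0 genes passed with all animals, but 1 to 6 genes did in 7 of 12 fits with 1 animal left out (control replicates 1 to 5, treated replicates 1 and 6; 6 without control replicate 3); the lowest adjusted p was 0.893 for TNF and 0.901 for IL18. The number of genes with a nominal p below 0.05, 157 in the reported fit, was 562 over all genes above 0, 301 over genes at 0.1 FPKM or more in 6 or more animals, and 142 to 325 with 1 animal left out, the highest without treated replicate 6. With the replicate number as a block it was 322. The same number stands for different animals, whose deviations correlated by -0.0134 to 0.416 (mean 0.213). Between animals with other numbers the correlation was -0.351 to 0.204 (mean -0.0394), and 4 of 6 control animals correlated best with their own number. The cause of this likeness was not tested. Under the 9 alternatives that kept all animals no log2 fold change of a member turned direction. With 1 animal left out, 5 members had values on both sides of 0: IL1B from -0.637 to 0.28, IL33 from -0.363 to 0.534, CCL20 from -0.701 to 0.232, NFKB1 from -0.027 to 0.132 and NFKBIA from -0.165 to 0.015; the cause was not tested. The values of the others kept their sign but moved by over 1.5 times: IL1A 0.036 to 0.543, CXCL8 -0.706 to -0.084, IL1RN 0.012 to 0.15 and IL18 0.132 to 0.522. TNF ranged from -0.19 (pseudocount 1) to -1.58 (without treated replicate 1). The 5 correlated pairs became 1 to 6 pairs with 1 animal left out: 1 without control replicate 2, control replicate 6 or treated replicate 5, and 3 without control replicate 3, treated replicate 4 or treated replicate 6; fewer animals enter these tests. IL1B and CXCL8 passed in every case, with r from 0.809 to 0.892. Depth limits TNF, IL18 and IL33 most, with medians of 10.5, 19 and 19 reads.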
